A study of Mus musculus with 13 samples.

Results

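Thymocytes are guided through the thymus, and later out of it, by G protein-coupled receptors that sense chemokines and the lipid sphingosine 1-phosphate (S1P). The genes described here are 6 chemokine receptors (Ccr4, Ccr7, Ccr8, Ccr9, Cxcr4 and Cxcr5), the S1P receptor S1pr1, and the transcription factors Klf2 and Foxo1, 9 of the 47937 genes in the count table. They were chosen by name as migration and egress genes, with earlier results of these data known. RNA was sequenced from CD4-CD8- double negative (DN) thymocytes sorted at the DN3 stage (CD44low CD25high), where the T cell receptor β chain is rearranged, and at the DN4 stage (CD44low CD25low), which follows β-selection. All mice were C57BL/6 animals of 6 weeks and carried Lck-Cre, a Cre recombinase driven by the promoter of the T-lineage kinase gene Lck. Mice labelled WT were WT;Lck-Cre+, and those labelled OPA1 KO, called KO-labelled here, were Opa1fl/fl;Lck-Cre+ and can delete Opa1, which encodes a protein that shapes the inner mitochondrial membrane, in cells that express Cre. The 13 libraries came from 7 mice, with 3 WT DN3, 3 KO-labelled DN3, 4 WT DN4 and 3 KO-labelled DN4 libraries. Mice WT05, WT46, WT48, KO45, KO49 and KO51 each gave both stages and WT40 gave DN4 cells only.

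Within the thymus, CXCR4 binds CXCL12 and is used by the earliest thymocytes to enter and move through the cortex, CCR9 binds CCL25 from the thymic epithelium, and CCR7 and CCR4 are used later to reach the medulla. CXCR5 is the receptor for CXCL13 that takes B cells, and helper T cells, into follicles. S1PR1 senses the S1P of blood and lymph and carries mature thymocytes out of the thymus. KLF2 activates transcription of S1pr1, and FOXO1, which signalling through PI3K and AKT keeps out of the nucleus, activates Klf2.

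DN4 cells had more RNA of 8 of the 9 genes than DN3 cells in WT as well as KO-labelled mice. The log2 fold changes lay between 1.56 (Ccr9 in KO-labelled mice) and 7.24 (Cxcr5 in KO-labelled mice). Of the 8, Ccr8, Cxcr5 and S1pr1 could be tested only because they were high in DN4. Over all genes tested, 13.4% were called higher in DN4 cells in WT and 11.2% in KO-labelled mice. The exception among the 9 was Cxcr4, the most abundant of them per kilobase of exon at both stages. It differed by 0.09 on the log2 scale in WT and by -0.0026 in KO-labelled mice. KO-labelled and WT libraries differed past the threshold for 0 of the 9 genes in DN4 cells and for 0 of the 6 that could be tested in DN3 cells. Over all genes tested, 0.0535% did so in DN4 and 0% in DN3 cells. Levels of Cxcr5 in DN4 libraries went with the level of B-cell markers, which varied from mouse to mouse. Those of Klf2 and S1pr1 did so by Pearson's r, but not by Spearman's rho after adjustment.

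Libraries held 5926848 to 14148661 counts, with a median of 10023044. Genes that resemble ribosomal RNA took 40.1% of the reads in the DN3 library of WT05, against 0.437% to 1.72% elsewhere. Il2ra, which encodes CD25, had 725 to 1335 CPM (a gene's counts scaled to one common library total) in DN3 and 9.77 to 24.1 CPM in DN4 libraries, so the stages were separated as labelled. Opa1 had 76.9 to 87.8 CPM in KO-labelled and 85.0 to 93.6 CPM in WT DN4 libraries, ranges that overlap, and counts over the whole gene do not show a loss of single exons, so the genotype rests on the labels. Xist, a marker of female cells, had 0 to 2 reads in the libraries of WT40 and WT46 and 10672 to 20604 in all others, so sex was not balanced between the genotypes. Summed over 8 B-cell markers, DN3 libraries had 49.3 to 81.2 CPM, WT DN4 libraries 420 to 3707 CPM and KO-labelled DN4 libraries 337 to 2129 CPM. Summed over 5 markers of immature single positive and double positive thymocytes, Cd4, Cd8a, Cd8b1 and Cd2 among them, DN3 libraries had 64.3 to 140 CPM and DN4 libraries 457 to 3082 CPM. In these sorted populations, more cells of a type and more RNA per cell cannot be told apart.

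Promoters are shown for genes on either side of the main contrast, Klf2, Ccr9 and Ccr8, which were higher in DN4 cells, and Cxcr4, which was not. They run 5′ to 3′ along the gene's strand from 250 bases before to 50 bases after the start given by RefSeq on GRCm38.p6, and 6 of the 9 genes had such a sequence. Capitals mark matches to CACCC on either strand, letters bound by KLF factors.
Klf2 (chr8:72318812-72319111, plus strand): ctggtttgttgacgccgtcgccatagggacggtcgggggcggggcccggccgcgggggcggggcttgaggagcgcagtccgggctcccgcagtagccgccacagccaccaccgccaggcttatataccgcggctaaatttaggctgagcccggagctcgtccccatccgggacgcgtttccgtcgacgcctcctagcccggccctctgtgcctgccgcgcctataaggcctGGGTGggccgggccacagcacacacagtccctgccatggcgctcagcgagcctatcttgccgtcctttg
Ccr9 (chr9:123766961-123767260, plus strand): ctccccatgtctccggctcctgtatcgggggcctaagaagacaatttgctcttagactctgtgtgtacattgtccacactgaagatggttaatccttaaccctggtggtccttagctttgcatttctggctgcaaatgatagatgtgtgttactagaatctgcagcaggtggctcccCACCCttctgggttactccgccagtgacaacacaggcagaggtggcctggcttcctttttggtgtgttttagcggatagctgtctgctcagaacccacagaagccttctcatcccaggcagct
Ccr8 (chr9:120091883-120092182, plus strand): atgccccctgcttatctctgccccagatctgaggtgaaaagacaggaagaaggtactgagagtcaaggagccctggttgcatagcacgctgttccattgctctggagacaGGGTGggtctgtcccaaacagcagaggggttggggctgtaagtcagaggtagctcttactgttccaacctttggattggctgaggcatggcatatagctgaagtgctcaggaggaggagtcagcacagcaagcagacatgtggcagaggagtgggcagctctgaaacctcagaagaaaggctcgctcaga
Cxcr4 (chr1:128592250-128592549, minus strand): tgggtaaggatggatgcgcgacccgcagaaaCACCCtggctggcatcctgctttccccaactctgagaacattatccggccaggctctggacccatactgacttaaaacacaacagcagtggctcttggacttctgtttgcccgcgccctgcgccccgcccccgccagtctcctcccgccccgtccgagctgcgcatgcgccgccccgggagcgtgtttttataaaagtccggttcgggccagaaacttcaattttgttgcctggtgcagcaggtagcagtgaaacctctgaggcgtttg
The match begins 19 bases before the start in Klf2, 73 in Ccr9, 140 in Ccr8 and 219 in Cxcr4. CACCC was found on either strand in 57.5% of all 32851 promoters of this length, and the promoter of Ccr4 held 1 match and that of Foxo1 held 0. The FOXO letters GTAAACA were in 0 of the 6 promoters and in 3.65% of all, and the E-box letters CANNTG, which can overlap CACCC, were in those of Ccr4, Ccr8, Ccr9 and Foxo1, and in 72.3% of all. The Ccr9 sequence lies around the RefSeq start, whereas the GENCODE M21 gene model begins far upstream, and where the model counted on by the authors begins was not checked.

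Stage was the question of the first comparison, which was fitted separately in the WT and the KO-labelled mice with the quasi-likelihood test of edgeR and p-values adjusted by Benjamini-Hochberg over all genes tested. In WT mice 13.4% of the 12691 genes tested were called higher and 9.43% lower in DN4 at an adjusted p under 0.05, against 8 of the 9 genes higher and 0 lower. Scaled by library totals, the calls over all genes were 1386 higher and 396 lower in place of 1706 and 1197, and the median of all genes moved from -0.03 to 0.16 on the log2 scale. In KO-labelled mice 11.2% of the 12580 genes tested were called higher and 7.34% lower, again against 8 and 0 of the 9 genes. In a fit that paired both stages of each mouse (mouse as a replicate block) 4499 genes were called in place of 2338 in KO-labelled mice. In WT mice, where WT40 has no pair and was left out, 2340 were called in place of 2903. Ccr8, Cxcr5 and S1pr1 were too low in DN3 cells to be kept on those counts alone, so they entered the stage comparison only through DN4 cells and had to differ there.

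Ccr9 (ENSMUSG00000029530.15, chromosome 9 of GRCm38 from 123678439 to 123784330, plus strand) had 102, 272 and 145 CPM in the WT DN3 libraries of WT05, WT46 and WT48 and 521, 591, 546 and 638 CPM in the DN4 libraries of WT05, WT40, WT46 and WT48. In KO45, KO49 and KO51 it had 260, 113 and 132 CPM in DN3 and 765, 381 and 389 CPM in DN4 cells. Every DN4 library lay above every DN3 library of its genotype, and KO45 was the highest of the KO-labelled mice at both stages. The log2 fold change was 1.70 in WT (standard error, SE, 0.306, adjusted p = 0.00542) and 1.56 in KO-labelled mice (SE 0.388, adjusted p = 0.0272). The KO-labelled call was lost without the DN3 library of KO49 or KO51 (adjusted p = 0.0999 and 0.0972) and without the DN4 library of KO45 (adjusted p = 0.0624), and over all alternatives its adjusted p ran from 2.6e-06 to 0.136. The gene model overlaps 6 others, Lztfl1 and Slc6a20a on the opposite strand among them, so that its counts are less certain than those of Ccr4, Ccr7, Ccr8, Cxcr4, S1pr1 and Klf2, whose models overlap 0 others.

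Ccr4 (ENSMUSG00000047898.6, chromosome 9 from 114490316 to 114504916, minus strand), whose product binds CCL17 and CCL22, had 6.42, 4.07 and 6.16 CPM in WT05, WT46 and WT48 at DN3 and 34.0, 34.3, 31.4 and 32.2 CPM in WT05, WT40, WT46 and WT48 at DN4. In KO45, KO49 and KO51 it had 4.94, 8.11 and 5.49 CPM at DN3 and 34.4, 38.0 and 27.1 CPM at DN4. The WT DN4 libraries lay within 1.09-fold of each other, the narrowest range of any of the 9 genes in that group, and the stages did not overlap. It rose by a log2 fold change of 2.57 in WT (SE 0.192, adjusted p = 1.0e-04) and 2.42 in KO-labelled mice (SE 0.233, adjusted p = 6.7e-04).

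Ccr7 (ENSMUSG00000037944.8, chromosome 11 from 99144196 to 99155077, minus strand), the receptor of CCL19 and CCL21, had 5.25, 2.39 and 2.97 CPM at DN3 in WT05, WT46 and WT48 and 84.7, 87.2, 71.6 and 94.4 CPM at DN4 in WT05, WT40, WT46 and WT48. In KO45, KO49 and KO51 it had 4.61, 3.85 and 2.06 CPM at DN3 and 64.1, 60.5 and 36.3 CPM at DN4. DN4 levels were far above DN3 levels in every mouse, with KO51 the lowest of both stages. It rose by a log2 fold change of 4.68 in WT (SE 0.257, adjusted p = 3.4e-05) and 3.90 in KO-labelled mice (SE 0.339, adjusted p = 5.5e-04).

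Ccr8 (ENSMUSG00000042262.4, chromosome 9 from 120092114 to 120094906, plus strand), a receptor of CCL1 found on skin-homing and regulatory T cells, was barely counted in DN3 cells, with 2, 1 and 3 reads in WT05, WT46 and WT48 and 8, 2 and 0 reads in KO45, KO49 and KO51. In DN4 cells it had 12.6, 8.57, 9.06 and 16.3 CPM in WT05, WT40, WT46 and WT48 and 6.79, 4.42 and 6.17 CPM in KO45, KO49 and KO51. The ratio of the counts summed over libraries, scaled for library size, was 45.7 in WT (95% exact interval 20.9 to 125) and 17.1 in KO-labelled mice (95% exact interval 9.14 to 36.2), intervals that cover counting error only. The fitted log2 fold change was 5.38 in WT (SE 0.527, adjusted p = 3.4e-04) and 4.07 in KO-labelled mice (SE 0.675, adjusted p = 0.00569). It was 4.76 in WT without the DN3 library of WT46 and 5.51 in KO-labelled mice without that of KO45.

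Cxcr4 (ENSMUSG00000045382.6, chromosome 1 from 128588199 to 128592293, minus strand) had 121, 130 and 180 CPM at DN3 in WT05, WT46 and WT48 and 221, 135, 121 and 147 CPM at DN4 in WT05, WT40, WT46 and WT48. In KO45, KO49 and KO51 it had 217, 213 and 140 CPM at DN3 and 233, 213 and 134 CPM at DN4. The stages overlapped in both genotypes, with log2 fold changes of 0.09 in WT (SE 0.227, adjusted p = 0.823) and -0.0026 in KO-labelled mice (SE 0.241, adjusted p = 0.994). Within mice it was higher in DN4 in 2 of 6, and WT05 had the largest difference, 0.87 on the log2 scale. The DN3 library of WT05 is the one with 40.1% of reads from genes that resemble ribosomal RNA. Without it the fitted log2 fold change of Cxcr4 in WT was -0.027. Per kilobase of exon it was first of the 9 genes in all 4 groups, with 79.5 ± 17.5 CPM per kb in WT DN3 (SD, n = 3) and 86.3 ± 24.8 CPM per kb in WT DN4 cells (SD, n = 4).

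Cxcr5 (ENSMUSG00000047880.14, chromosome 9 from 44511787 to 44561877, minus strand, with Bcl9l on the opposite strand) had 1, 3 and 7 reads in the DN3 libraries of WT05, WT46 and WT48 and 5, 3 and 0 in those of KO45, KO49 and KO51. In DN4 cells it had 64.3, 11.1, 15.4 and 140 CPM in WT05, WT40, WT46 and WT48 and 37.8, 81.0 and 9.25 CPM in KO45, KO49 and KO51. WT48 had 12.6-fold the level of WT40, and KO49 8.75-fold that of KO51, so that the spread within each DN4 group was the widest of the 9 genes. The scaled ratio of summed counts between the stages was 119 in WT (95% exact interval 66.3 to 239) and 174 in KO-labelled mice (95% exact interval 88.1 to 404). These intervals cover counting error only and not the spread between mice. The fitted log2 fold change was 6.90 in WT (SE 1.27, adjusted p = 0.00609) and 7.24 in KO-labelled mice (SE 1.04, adjusted p = 0.00317). In limma-voom the call was lost in both (adjusted p = 0.185 and 0.0906, the highest of the alternatives, whose lowest were 1.0e-08 and 1.4e-07), with log2 fold changes of 6.16 and 7.23. In edgeR the value fell to 5.97 in WT without the DN4 library of WT48 and to 6.38 in KO-labelled mice without that of KO49. Without the DN3 library of WT48 it was 7.64, and in KO-labelled mice it was 7.87 and 6.63 without the DN3 libraries of KO45 and KO51.

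S1pr1 (ENSMUSG00000045092.8, chromosome 3 from 115710433 to 115715072, minus strand) had 4, 15 and 2 reads in the DN3 libraries of WT05, WT46 and WT48 and 13, 1 and 1 in those of KO45, KO49 and KO51. In DN4 cells it had 119, 82.8, 85.9 and 182 CPM in WT05, WT40, WT46 and WT48 and 77.6, 90.8 and 46.3 CPM in KO45, KO49 and KO51. The scaled ratio of summed counts was 131 in WT (95% exact interval 85.4 to 211) and 148 in KO-labelled mice (95% exact interval 89.7 to 265), again for counting error only. The fitted log2 fold change was 7.02 in WT (SE 0.530, adjusted p = 1.1e-04) and 7.12 in KO-labelled mice (SE 0.551, adjusted p = 4.4e-04). Of the low DN3 counts most came from WT46 and KO45, and without those libraries the values were 7.82 and 9.17.

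Klf2 (ENSMUSG00000055148.7, chromosome 8 from 72319033 to 72321656, plus strand), a zinc-finger factor of quiescent T cells, had 3.50, 3.09 and 4.62 CPM at DN3 in WT05, WT46 and WT48 and 118, 85.3, 82.6 and 198 CPM at DN4 in WT05, WT40, WT46 and WT48. In KO45, KO49 and KO51 it had 6.92, 4.39 and 4.41 CPM at DN3 and 78.4, 114 and 56.9 CPM at DN4. The lowest DN4 library, KO51, was still above every DN3 library, and WT48 was the highest. Klf2 rose by a log2 fold change of 4.98 in WT (SE 0.406, adjusted p = 1.5e-04) and 3.94 in KO-labelled mice (SE 0.318, adjusted p = 4.8e-04).

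Foxo1 (ENSMUSG00000044167.6, chromosome 3 from 52268336 to 52353221, plus strand, overlapping the antisense gene Gm20402 and Gm38034) had 34.4, 22.1 and 23.0 CPM at DN3 in WT05, WT46 and WT48 and 171, 118, 107 and 178 CPM at DN4 in WT05, WT40, WT46 and WT48. In KO45, KO49 and KO51 it had 24.7, 20.1 and 22.0 CPM at DN3 and 104, 121 and 77.1 CPM at DN4. Unlike Klf2 and S1pr1 it was well counted in DN3 cells, with 118 to 300 reads in each library. It rose by a log2 fold change of 2.43 in WT (SE 0.252, adjusted p = 4.2e-04) and 2.15 in KO-labelled mice (SE 0.188, adjusted p = 5.5e-04).

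**Figure D1:**
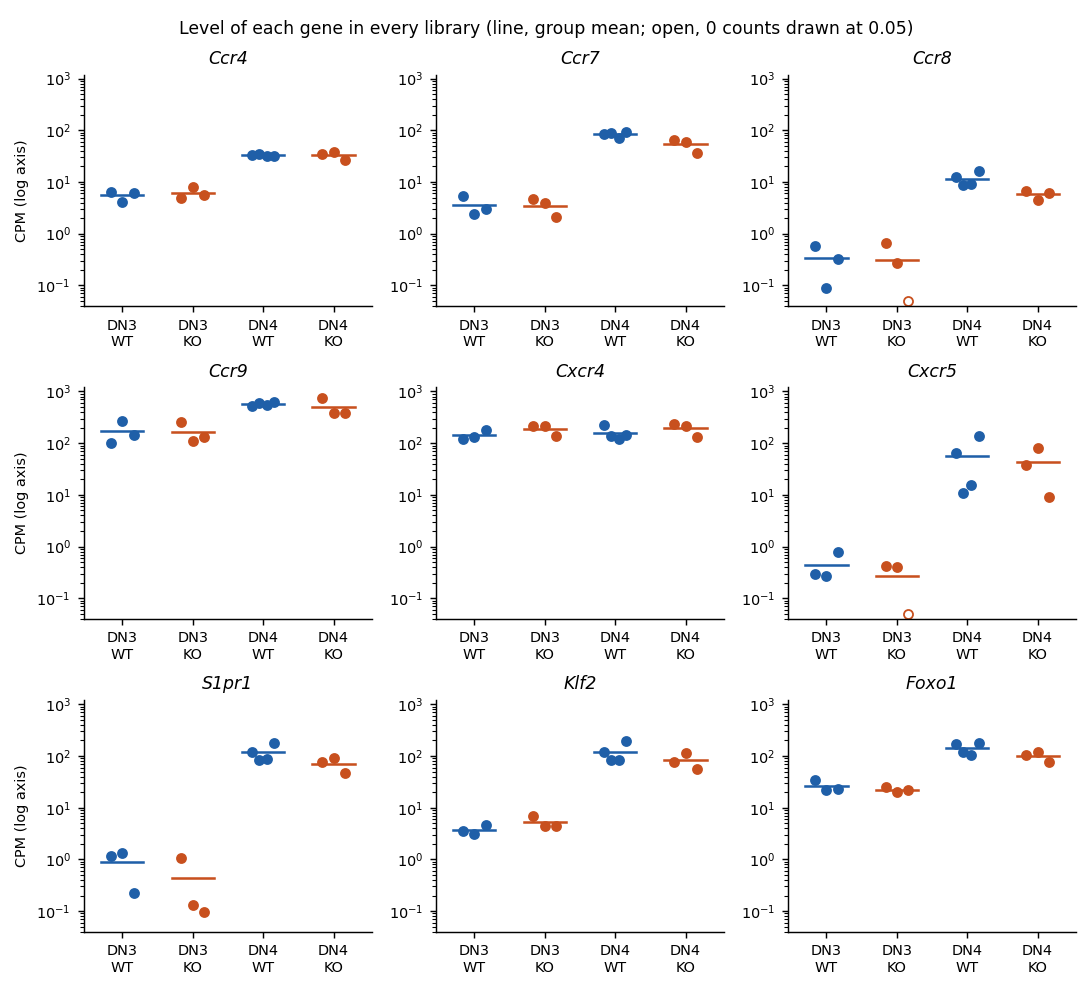
Levels in CPM (log axis) of the 9 genes in each of the 13 libraries, WT in blue and KO-labelled in orange, with a line at the group mean and open circles for libraries with 0 counts. All genes but Cxcr4 lie higher in DN4 than in DN3 libraries, and Cxcr5 spreads most among DN4 libraries, from 9.25 to 140 CPM.

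Apart from Cxcr4, the stage groups did not overlap in either genotype, which fixes the direction within each mouse, so only the sizes of the within-mouse differences add to the above. The share of all genes without such overlap was not computed, so this is a description. By edgeR 35.5% of all genes tested in WT and 33% in KO-labelled mice had an unadjusted p under 0.05 between the stages. On log2 CPM with 2 counts added, the smallest was 1.01, for Ccr9 in WT46, and the largest was 8.80, for S1pr1 in WT48.

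**Figure D2:**
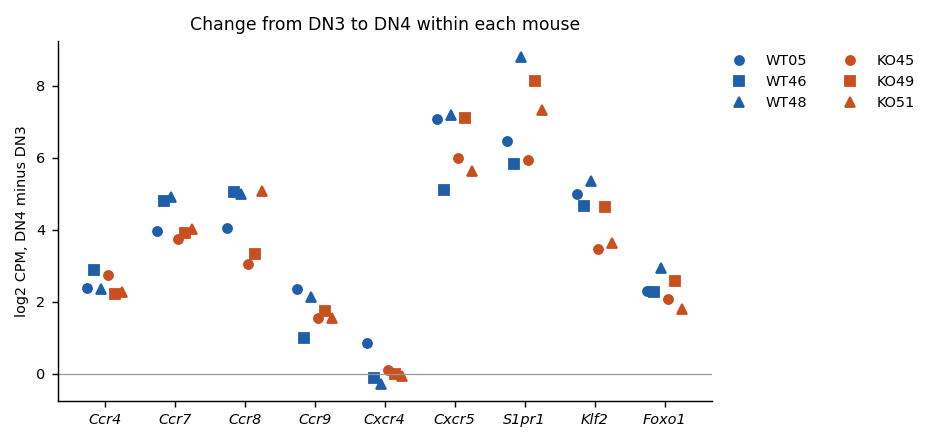
Difference in log2 CPM (2 counts added) between the DN4 and the DN3 library of each of 6 mice, WT in blue and KO-labelled in orange. Only Cxcr4 has mice on both sides of 0, from -0.29 in WT48 to 0.87 in WT05.

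The order of the genes by level, per kilobase of exon, differed between the stages. In WT DN3 cells Cxcr4 was followed by Ccr9 with 16.8 ± 8.62, Foxo1 with 3.06 ± 0.795, Klf2 with 2.02 ± 0.428, Ccr4 with 1.79 ± 0.417 and Ccr7 with 1.79 ± 0.766 CPM per kb (SD, n = 3), and S1pr1, Ccr8 and Cxcr5 had 0.133 to 0.297 CPM per kb. Klf2, Ccr4 and Ccr7 differed by less than the SD of Ccr7, whereas Foxo1 lay above Klf2 in each of the 3 WT libraries. In KO-labelled DN3 cells the order of these was reversed, with 2.84 ± 0.788 CPM per kb for Klf2 and 2.57 ± 0.269 CPM per kb for Foxo1 (SD, n = 3), a difference smaller than the SD of Klf2. In WT DN4 cells Klf2 came second with 65.5 ± 29.2, followed by Ccr9 with 55.9 ± 5.03, Ccr7 with 42.7 ± 4.81, S1pr1 with 38.5 ± 15.1, Cxcr5 with 17.3 ± 18.0, Foxo1 with 16.5 ± 4.17, Ccr4 with 10.7 ± 0.460 and Ccr8 with 9.91 ± 3.06 CPM per kb (SD, n = 4). Differences between neighbours were smaller than the larger SD of the pair for Cxcr4 and Klf2, Klf2 and Ccr9, Ccr7 and S1pr1, Cxcr5 and Foxo1, and Ccr4 and Ccr8, but not for Ccr9 and Ccr7, S1pr1 and Cxcr5, or Foxo1 and Ccr4. In KO-labelled DN4 cells Ccr9, with 49.8 ± 21.4 CPM per kb (SD, n = 3), came before Klf2, by less than that spread. The exon length of Ccr9, 10.26 kb, is that of GENCODE M21 and includes exons far upstream of its RefSeq start, which lowers its value per kb.

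Genotype was the second question. Between KO-labelled and WT DN4 cells, 0 of the 9 genes passed in edgeR, where 0.0535% of the 13084 genes tested were called, and 0 passed in DESeq2 or limma-voom. An unadjusted p under 0.05 was found for 2 of the 9, Ccr7 and Ccr8, and for 715 of all 13084 genes tested (5.46%). For both, all 3 KO-labelled libraries lay below all 4 WT libraries, which was so for 4.33% of all genes tested, and the reverse for 2.73%. Ccr7 was 53.6 ± 15.1 CPM in KO-labelled (SD, n = 3) and 84.5 ± 9.51 CPM in WT DN4 cells (SD, n = 4), a log2 fold change of -0.62 (SE 0.193, adjusted p = 0.854, and 0.221 to 1 over the alternatives). Ccr8 was 5.79 ± 1.23 CPM in KO-labelled (SD, n = 3) and 11.6 ± 3.60 CPM in WT DN4 cells (SD, n = 4), a log2 fold change of -0.97 (SE 0.278, adjusted p = 0.832, and 0.171 to 1 over the alternatives). Summed markers of natural killer and innate lymphoid cells (195.5 to 290.3 CPM in KO-labelled and 289.3 to 386.5 CPM in WT) and of γδ T cells (722 to 1109 CPM and 951 to 2166 CPM) had lower ranges in KO-labelled DN4 libraries that overlapped those of WT. Such sums need not come from those cells. WT DN3 libraries had 225 to 249 CPM, with 3 of the 6 natural killer markers unread, and 1124 to 1947 CPM. Sums of 6 DN3 markers were 221 to 251 CPM in KO-labelled and 144 to 199 CPM in WT DN4 libraries, without overlap. Those of immature single positive and double positive markers were 912 to 3082 and 457 to 1920 CPM. The part of these cells in the differences of Ccr7 and Ccr8 was not tested.

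The other 7 genes overlapped between the genotypes in DN4 cells. The value was -0.68 for S1pr1 (SE 0.313, adjusted p = 0.883 and at least 0.0949 under every alternative), -0.50 for Klf2 (SE 0.335) and -0.47 for Foxo1 (SE 0.214). For Cxcr4 it was 0.34 (SE 0.245), and for Ccr4 and Ccr9 0.04 and -0.13. For Cxcr5 the value was -0.39 with an SE of 0.919, and its sign turned with single libraries, from -1.21 without KO49 to 0.53 without WT48. With the B-cell marker level added to the model as a term, an alternative chosen after these levels were seen, S1pr1 had -0.57 (adjusted p = 0.0949), Ccr7 -0.60 (adjusted p = 0.240), Ccr8 -0.89 (adjusted p = 0.316) and Cxcr5 0.14.

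In DN3 cells, 6 of the 9 genes had enough counts to be tested and 0 differed between the genotypes by edgeR, DESeq2 or limma-voom, nor did any have an unadjusted p under 0.05. Over all 12105 genes the share called by edgeR was 0%, with 168 at an unadjusted p under 0.05 and 3 called by DESeq2. The largest differences were 0.48 for Klf2 (SE 0.343) and 0.39 for Cxcr4 (SE 0.216). Ccr9 at -0.05, Ccr7 at 0.05, Ccr4 at 0.16 and Foxo1 at -0.24 had SEs of 0.210 to 0.457. Ccr8, Cxcr5 and S1pr1, with 0 to 15 reads in each DN3 library, had too few counts for this test. With no filter beyond 1 count, and in one fit of all 13 libraries, all 9 genes were tested and 0 were called.

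**Figure D3:**
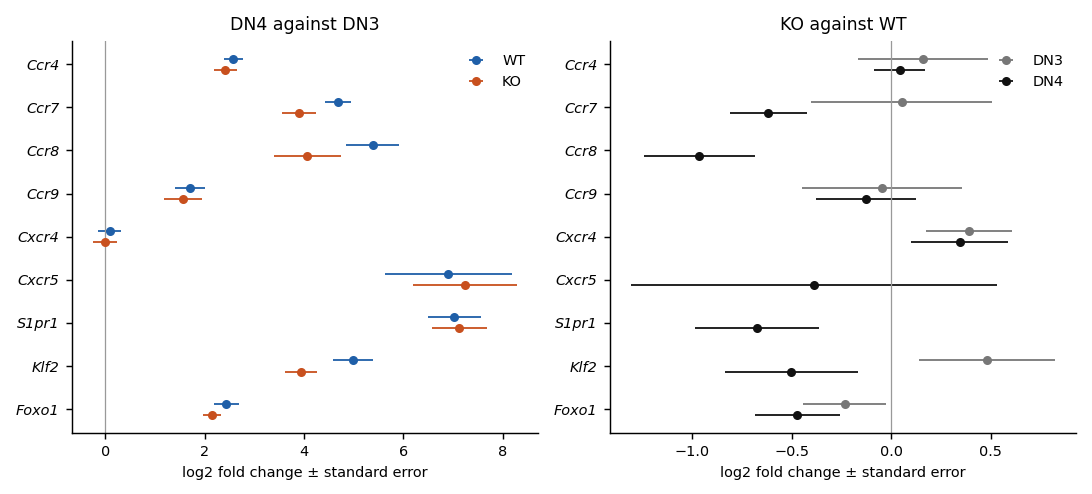
Fitted log2 fold changes with standard errors for DN4 against DN3 (left, WT in blue and KO-labelled in orange) and KO-labelled against WT (right, DN3 in grey and DN4 in black). The stage changes reach 7.24, whereas the genotype differences lie between -0.97 and 0.48.

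Whether the change from DN3 to DN4 itself differed between the genotypes was tested as an interaction over all 13 libraries. The interaction was called for 0 of the 9 genes and for 0% of 13361 genes tested in edgeR, with 480 of these at an unadjusted p under 0.05 and 2 called by DESeq2. In addition, 0 of the 9 had an unadjusted p under 0.05, and 0 of the 9 were called by DESeq2 or limma-voom. The largest values were -1.30 for Ccr8 (SE 1.003), -1.04 for Klf2 (SE 0.528) and -0.79 for Ccr7 (SE 0.434), the stage difference being smaller in KO-labelled mice, and the adjusted p was 1 for all of them. Without the DN3 library of KO45 the value for Ccr8 was 0.11. For Ccr4, Ccr9 and Cxcr4 the values lay between -0.16 and -0.09. S1pr1 had 0.11 with an SE of 0.889, and its value was 2.12 without the DN3 library of KO45 and -0.70 without that of WT46.

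The DN4 libraries differed in their B-cell marker level, and some of the 9 genes moved with it. The 8 markers, among them Cd79a, Cd79b, Ms4a1, Pax5, Ebf1, Fcer2a and Blk, summed to 1966, 420, 579 and 3707 CPM in WT05, WT40, WT46 and WT48 and to 1217, 2129 and 337 CPM in KO45, KO49 and KO51, and all 8 rose from DN3 to DN4 in both genotypes. Over the 7 DN4 libraries Cxcr5 went with this sum, with Pearson's r = 0.997 (exact permutation p = 1.98e-04, the smallest that 5040 orders allow, 0.00357 after Benjamini-Hochberg adjustment over 18 relations) and Spearman's rho = 1 (exact permutation p = 3.97e-04, adjusted 0.00714). Without WT48 and KO49, the libraries farthest from the median, r was 0.999. Each genotype alone has too few libraries for this test. The flow cytometry of the study gated DN subsets as lineage-negative, but whether the sorts for RNA did so is not given in the sources used here.

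The 3 genes whose log2 CPM was closest to that of Cxcr5 over all 13 libraries were Cr2, Ms4a1 and Fcer2a (Pearson's r = 0.994, 0.993 and 0.993), all of them B-cell genes. Ms4a1 and Fcer2a are among the markers summed above, and the stages alone give every DN4-high gene a high r, so this is a description.

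Klf2 also went with the B-cell marker sum (r = 0.953, exact permutation p = 0.00417, adjusted 0.0375), as did S1pr1 (r = 0.906, exact permutation p = 0.00635, adjusted 0.0381). Spearman's rho was 0.821 for Klf2 and 0.857 for S1pr1, with exact permutation p-values of 0.0341 and 0.0238 that were 0.154 each after adjustment. Without WT48 and KO49 the values of r were 0.821 and 0.794. Foxo1 had r = 0.828 (exact permutation p = 0.0155, adjusted 0.0696), and the other 5 genes had r between 0.161 and 0.643 with adjusted exact permutation p-values of 0.393 or more. Without WT48 and KO49, r was 0.866 for Cxcr4 in place of 0.304, 0.713 for Ccr8 in place of 0.643 and 0.830 for Foxo1, and it lay between 0.292 and 0.553 for Ccr4, Ccr7 and Ccr9. With the sum of the markers of immature single positive and double positive thymocytes, 0 of the 9 relations passed after adjustment.

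**Figure D4:**
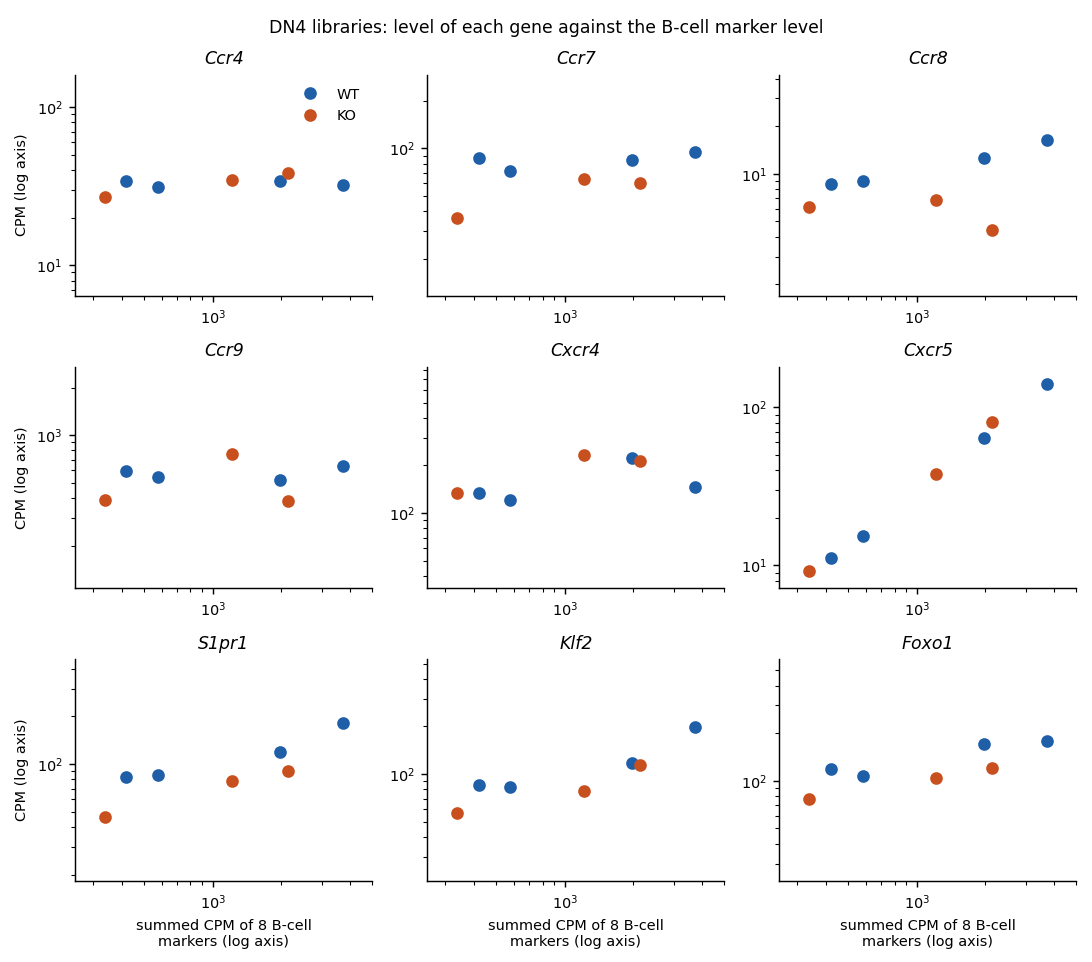
CPM of each of the 9 genes against the summed CPM of 8 B-cell markers in the 7 DN4 libraries, both on log axes and each vertical axis spanning the same fold range, WT in blue and KO-labelled in orange. Cxcr5 climbs with the marker level from 9.25 CPM in KO51 to 140 CPM in WT48, whereas Ccr4 stays between 27.1 and 38.0 CPM.

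The stage comparison was repeated with the DN4 libraries under 1000 CPM of summed B-cell markers only, an alternative chosen after the levels were seen, which left WT40 and WT46 in WT and KO51 alone in KO-labelled mice, where the lone library is assumed to vary like the others. In WT mice 8 of the 9 genes were again called higher, where 1104 of all 12848 genes tested were called higher and 662 lower. Ccr8, Cxcr5 and S1pr1 were again kept only through DN4 cells and had to be higher. Log2 fold changes were 4.78 for Cxcr5 in place of 6.90, 4.46 for Klf2 in place of 4.98, 6.55 for S1pr1 in place of 7.02 and 2.09 for Foxo1 in place of 2.43. Ccr4, Ccr7 and Ccr9 had 2.58, 4.61 and 1.69 in place of 2.57, 4.68 and 1.70. In KO-labelled mice, with the lone library, only sizes are given. Cxcr5 had 5.05 in place of 7.24, S1pr1 6.53 in place of 7.12, Klf2 3.42 in place of 3.94 and Foxo1 1.79 in place of 2.15. There Ccr4, Ccr7 and Ccr9 had 2.14, 3.36 and 1.20 in place of 2.42, 3.90 and 1.56. The part of other cells in the remaining stage differences was not tested. The 5 myeloid markers summed to 0.796 to 5.77 CPM in DN4 and to 3.79 to 12.98 CPM in DN3 libraries. Markers of plasmacytoid dendritic cells summed to 61.6 to 272 CPM in DN4 and 66.3 to 95.2 CPM in DN3 libraries, with 0 to 4 reads of Siglech and 0 to 1 reads of Klk1 in each library. Of these 4 markers 2 could be tested, and 1 was higher in DN4 cells of each genotype. Of 6 markers of natural killer and innate lymphoid cells, 3 were higher in DN4 cells of each genotype, and of 6 markers of γδ T cells 2 were higher and 2 lower in WT and 0 higher and 3 lower in KO-labelled mice. Of 5 markers of mature T cells 2 were higher and 1 lower in each genotype, and of 6 DN3 markers 4 were lower in WT and 5 in KO-labelled DN4 cells.

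Other genes whose pattern was closest to each member, by Pearson's r of log2 CPM over 13 libraries, are given as a description, since the stages alone separate the libraries and give every DN4-high gene a high r. They were Nsmce1, Cd2 and Eomes for Ccr4 (r = 0.993 to 0.984), Evl, Ahnak and Slc4a8 for Ccr7 (r = 0.992 to 0.990), Tes, Ccr7 and Slc4a8 for Ccr8 (r = 0.986 to 0.983), and Chst10, Rnf167 and Rasal3 for Ccr9 (r = 0.982 to 0.977). For S1pr1 they were Gimap3, Gimap8 and Pacsin1 (r = 0.991 to 0.988), for Klf2 Evl, Rhof and Itgb7 (r = 0.994 to 0.993), and for Foxo1 Mllt6, Stk10 and Chd7 (r = 0.992 to 0.991). Cxcr4 had no close partner, the highest being Pdzd2 with r = 0.765.

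Genes around these receptors were followed through lists, whose counts stand beside 13.4% higher and 9.43% lower over all genes tested in WT and 11.2% and 7.34% in KO-labelled mice. Of 17 other chemokine receptors, 7 had enough counts to be tested in WT mice, and 6 of them were called higher and 0 lower in DN4. These 6 were kept only through their DN4 counts and had to be higher, so the count is a description. Ccr6, which B cells also express, had 8.22 (SE 1.37) and Cxcr6 4.55 (SE 0.402). Their levels went from 0.0733 and 0.959 CPM in DN3 to 29.4 ± 29.2 and 19.2 ± 2.42 CPM in DN4 cells (SD, n = 4), so Ccr6 varied widely between mice. The WT value of Ccr6 rests on 2 DN3 reads, and the ratio of its summed counts was 332 with a 95% exact interval of 91.6 to 2741, for counting error only. In KO-labelled mice 5 of 6 tested were called higher, 4 of them kept only through DN4 cells, with Ccr6, Cx3cr1 and Cxcr6 at 5.35, 4.68 and 4.63. Of 9 ligands of the 6 chemokine receptors only Ccl25 could be tested, and it did not pass in either genotype.

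Among the other S1P receptors, S1pr4 rose by a log2 fold change of 2.52 in WT (SE 0.354, adjusted p = 0.00184) and 2.01 in KO-labelled mice (SE 0.307, adjusted p = 0.00408), from 11.6 to 70.0 CPM in WT. S1pr2, which opposes migration, fell by 0.52 on the log2 scale in WT (adjusted p = 0.0242), and in KO-labelled mice it had -0.47 (adjusted p = 0.166). Of 10 genes of S1P synthesis, breakdown and transport, 8 were tested in WT, where Plpp2 and Sgpl1, a lipid phosphate phosphatase and the S1P lyase, had 3.67 and 0.84 and were called higher, and 0 were lower. Plpp2 too had 2 DN3 reads in WT and was kept only through DN4 cells, where it had to be higher. The ratio of its summed counts was 14.9 with a 95% exact interval of 3.93 to 126, for counting error only. In KO-labelled mice 0 of 7 passed in edgeR, with 2 at an unadjusted p under 0.05, where 4155 of all 12580 genes tested had one.

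Relatives, regulators and targets of FOXO1 and KLF2 followed. Sgk1, a kinase of FOXO factors, rose by 3.28 in WT and 3.21 in KO-labelled mice. Inpp5d, the lipid phosphatase SHIP1, rose by 1.30 and 1.12, whereas 9 of 11 genes tested on this list in WT and 8 of 11 in KO-labelled mice did not pass. In the KLF family 2 of 9 rose in WT and 3 of 9 in KO-labelled mice, by at most 1.17 (Klf7 in KO-labelled mice). Among 15 target genes of FOXO1 and KLF2, 5 rose and 3 fell in WT, and 5 rose and 1 fell in KO-labelled mice. Itgb7, an integrin chain of gut homing, rose by 4.61 and 3.75 and the cyclin gene Ccng2 by 1.12 and 1.19, but Il7r, a target that FOXO1 activates, fell by 0.79 in WT and by 1.43 in KO-labelled mice on the log2 scale.

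Below the receptors, 9 of 25 genes of chemotactic signalling rose and 1 fell in WT and 6 rose and 0 fell in KO-labelled mice, with medians of 0.30 and 0.26 against -0.03 and -0.02 over all genes tested. Gng2, a G protein subunit, rose by 2.00 in WT and had 1.08 in KO-labelled mice (adjusted p = 0.0740), and the kinase gene Ptk2b rose by 1.497 and 1.64. Of 15 genes that desensitize or retain receptors, 9 rose and 1 fell in WT and 8 rose and 1 fell in KO-labelled mice. Among the 8, the G protein regulator gene Rgs16, was kept in KO-labelled mice only through DN4 cells, where it had to be higher. Cd69, whose product draws S1PR1 off the cell surface, rose by 2.27 in WT (SE 0.245, adjusted p = 5.2e-04) and 2.42 in KO-labelled mice (SE 0.294, adjusted p = 0.00162), Rgs3 by 2.20 and 1.84, and the receptor kinase gene Grk3 fell by 1.92 and by 2.34 on the log2 scale. Between the genotypes, 0 genes of these 9 lists were called by edgeR at either stage, with an unadjusted p under 0.05 for 8 of 96 tested in DN4 and 1 of 84 in DN3 cells, where 5.46% and 1.39% of all genes had one.

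**Figure D5:**
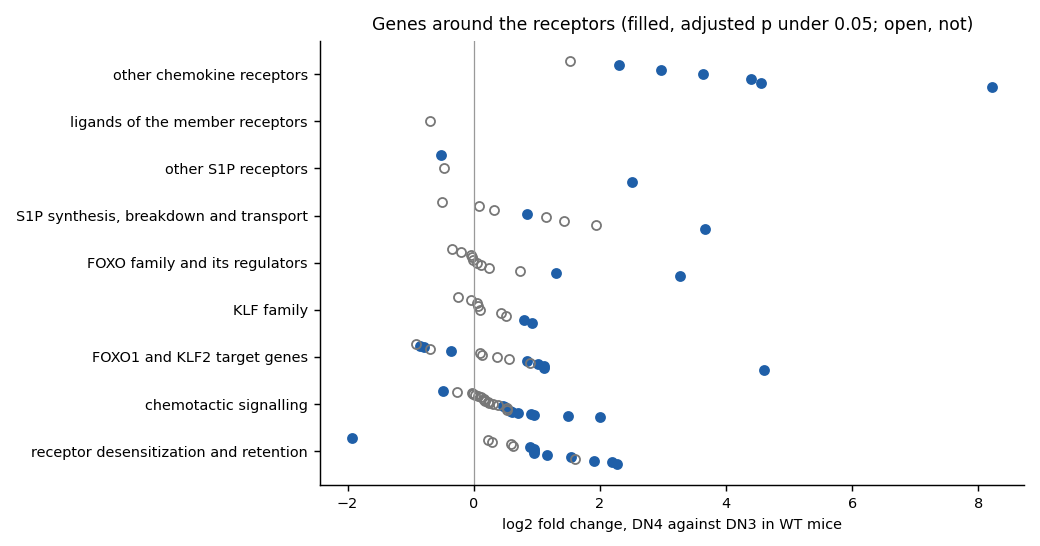
Log2 fold change between DN4 and DN3 cells in WT mice for each tested gene of 9 lists around the receptors, filled where the adjusted p was under 0.05 and open where it was not. Ccr6 lies furthest to the right at 8.22, one of the 6 filled chemokine receptors that could be tested only through their DN4 counts and so had to be higher, and Grk3 lies furthest to the left at -1.92.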

How the data were processed

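RNA of DN3 and DN4 thymocytes was sequenced in 13 libraries from TruSeq stranded mRNA kits. The authors trimmed reads with Cutadapt, mapped them with STAR to mm10 and counted them per gene with featureCounts, and deposited whole-number counts without normalization; whether strand was used in counting is not given in the sources used here. Counts were used as deposited. Genes were matched to GENCODE M21 on GRCm38 without version (47310 of 47937 identifiers); promoter sequences are from RefSeq. After filterByExpr (minimum count 10) and TMM scaling, only the groups compared entered a fit, in glmQLFit and glmQLFTest of R 4.3.3 with edgeR 4.0.16, and the adjusted p threshold was 0.05. CPM use TMM-scaled library sizes; libraries of fewer counts are less precise for low genes. Alternatives included DESeq2 1.42.0 and limma-voom 3.58.1. Permutation tests were two-sided.

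The 9 genes and the lists were chosen with earlier results of these data known. From the lists, up to 3 genes higher and 3 lower per comparison were named among those called whose groups did not overlap, by fitted change; Ccl25 and the likeness to each gene's 3 nearest protein-coding genes of 11513 are given besides, and some genes of the lists are not reported here. DN3 and DN4 libraries of one number come from one mouse, and their deviations from the group means correlated with r = 0.124 to 0.460 in each of the 6 mice over 13361 genes. Between libraries of a group chi-squared was at least 6.19 per degree of freedom, so no library matched another of its group, and pairs across groups were left out of that check. The pipeline was tested on simulated data.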

Additional observations from a re-analysis of the deposited data

How the results depend on the processing

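All directions of the 8 genes higher in DN4 were kept under every alternative that tested them. With at least 10 counts in every library, 5 of 6 genes tested were called in each genotype, since Ccr8, Cxcr5 and S1pr1 then drop out by construction. Over all genes, 1074 of 10479 were then called higher and 998 lower in WT, and 968 of 11165 higher and 817 lower in KO-labelled mice. The replicate block of mice changed no call of the 9 genes, but 4499 genes were called between the stages in KO-labelled mice in place of 2338, and 2340 in WT mice in place of 2903. Over all genes, stage calls in WT were 1782 with library totals, 1766 with DN4 libraries low in B-cell markers and 1845 to 3393 with each library left out (1877 and 1918 without the DN3 library of WT46 or WT48 and 1845 without the DN4 library of WT05); in KO-labelled mice they were 714 with the DN4 library low in B-cell markers and 1407 to 2790 with each left out (lowest without the DN3 libraries of KO49 and KO51 and the DN4 library of KO49). Between the genotypes in DN4 cells 7 genes were called, against 11 without a filter, 51 by DESeq2, 1 in females only, 25 with the marker covariate and 0 to 8 with each library left out. In DN3 cells 0 were called, against 1 without a filter, 3 by DESeq2, 1 in females only and 0 to 1 with each left out, and in the interaction 0 against 2 by DESeq2. The cause of these shifts was not tested.

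These values of genes that were not called turned sign. In DN4 against DN3 cells Cxcr4 was -0.19 in WT with few B-cell markers and -0.12 to 0.28 with each library left out, and in KO-labelled mice 0.0085 with DESeq2 size factors, 0.010 without a filter, 0.00038 with the strict filter, 0.0081 by DESeq2, 0.026 in one fit of all libraries and -0.20 to 0.19 with each left out. Between the genotypes in DN4 cells, leaving out each library gave -0.047 to 0.18 for Ccr4, -0.56 to 0.063 for Ccr9 and -1.21 to 0.53 for Cxcr5, which was 0.14 with the marker covariate. In DN3 cells Ccr9 was 0.11 and Foxo1 0.068 with library totals, where the median of all genes moved to 0.23, and in females only Ccr4, Ccr7 and Ccr9 were -0.040, -0.19 and 0.44; with each left out Ccr4 was -0.079 to 0.30, Ccr7 -0.22 to 0.40 and Ccr9 -0.51 to 0.44. In the interaction S1pr1 was -0.030 with library totals, where the median of all genes was -0.20, and Cxcr5 -0.019 with the replicate block; with each left out the ranges were -0.31 to 0.071 for Ccr4, -1.88 to 0.11 for Ccr8, -0.61 to 0.34 for Ccr9, -0.29 to 0.13 for Cxcr4, -0.52 to 1.26 for Cxcr5 and -0.70 to 2.12 for S1pr1. The depth limits Ccr8, Cxcr5 and S1pr1 in DN3 cells.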

Other observations

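Cxcr6 and Cx3cr1, chemokine receptors of tissue-resident and cytotoxic cells, had 3 KO-labelled DN4 libraries below every WT one, as had Ccr7 and Ccr8, and they were named after their values were seen. Over all genes tested this was so for 4.33%, and the reverse for 2.73%. Beside the 9 genes, 7 other chemokine receptors were tested and overlapped, and of all 96 genes tested on the lists 10 had every KO-labelled library below every WT one, Sgk1, Pik3cd, Il7r, Itgb7, Cat, Gnai3, Arrb2 and Rgs3 being the others, and 0 had the reverse; 0 of the 10 passed in edgeR. Cxcr6 was 10.9 ± 1.32 CPM in KO-labelled (SD, n = 3) and 19.2 ± 2.42 CPM in WT DN4 cells (SD, n = 4), a log2 fold change of -0.78 (SE 0.158, adjusted p = 0.427 in edgeR). Cx3cr1 was 5.49 ± 0.835 CPM and 9.04 ± 2.08 CPM, a log2 fold change of -0.69 (SE 0.227, adjusted p = 0.856 in edgeR). The marker sums given for Ccr7 and Ccr8 apply here too, with the same limits, and the part of those cells was not tested.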
